A study of Homo sapiens with 6 samples.

Results

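The SLC25 family is the main group of carriers that move metabolites across the inner mitochondrial membrane. Its members were taken here as every entry of the deposited count table whose symbol is SLC25A followed by a number, which gave 43 of 19201 entries, for 42 gene symbols. SLC25A6 has 2 entries. A further 6 SLC25A symbols of the GENCODE 44 annotation were not analysed here. The table holds RNA-seq read counts from the human lung cancer line H1299 (non-small cell), with 3 libraries of cells made to overexpress lncBCAS1-4_1, a long non-coding RNA, and 3 of wild-type cells as controls. The labels name no vector for the controls, do not say by what means the RNA was raised or in how many clones, and do not say that replicates came from separate cultures. What the procedure did to the cells and what the RNA did therefore cannot be told apart, and p-values cover only the spread between these samples, possibly a technical one. The series title sets the RNA beside CYP24A1, the enzyme that breaks down active vitamin D. CYP24A1 had 212102, 299348 and 235864 counts in the overexpressing libraries, against 81, 57 and 74 counts in the controls, and no entry of the table is named for lncBCAS1-4_1.

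SLC25 carriers are made in the cytosol from nuclear genes, pass through the outer membrane pore and are inserted into the inner membrane. They exchange ADP for ATP and import phosphate for oxidative phosphorylation, carry citrate, malate, oxoglutarate, aspartate and glutamate between matrix and cytosol, and bring in cofactors, amino acids, glutathione and iron. The aspartate/glutamate and oxoglutarate carriers together move the reducing equivalents of cytosolic NADH into mitochondria, and export of citrate feeds fatty acid and sterol synthesis. A few relatives uncouple respiration or sit outside the inner membrane.

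Total counts ran from 84531039 to 92780032 per library, and the counts of a member summed over the 6 libraries from 133 to 450077. Levels below are counts per 1e6 library counts (CPM) after TMM scaling. The keratins KRT18 (1301 ± 92.96 CPM in overexpressing cells and 956 ± 71.2 CPM in controls; SD, n = 3 each) and KRT8 (446 ± 29.96 CPM in overexpressing cells and 368 ± 18.2 CPM in controls; SD, n = 3 each) were abundant, KRT7 and KRT19 averaged 3.94 and 0.177 CPM, and the other 2 listed epithelial genes were not analysed here. KRT18 (0.44 on the log2 scale), KRT8 (0.28) and KRT7 (0.87) were higher as fitted, and KRT7 also after the correction described below (0.53, adjusted p = 0.028), a call that 1 library less can end (adjusted p up to 0.093). The lung lineage factor NKX2-1 was at 0.431 ± 0.169 CPM in overexpressing cells and 0.674 ± 0.1398 CPM in controls (SD, n = 3 each), and the other 4 listed lung lineage genes were not analysed here. Of the listed leukocyte, endothelial and fibroblast genes, 6 of 11 were analysed, and all but the macrophage and lysosome gene CD68 were under 2 CPM in both groups on average. CD68 had 83.2 ± 4.27 CPM in overexpressing cells and 71.9 ± 2.15 CPM in controls (SD, n = 3 each), was higher as fitted (0.21 on the log2 scale, adjusted p = 0.0094) and did not pass with the correction (-0.052, adjusted p = 0.39). The part of these differences in the results was not tested. Fold changes of the whole table followed the GC content of the transcripts. Their Spearman correlation was 0.72 over 10119 entries with a mean log2 CPM above 3, as a description, since genes are not independent replicates. Each member is therefore given as fitted and after GC content and length of the transcripts were corrected for in every library, called the correction below. Whether the trend comes from the libraries or from the cells was not tested.

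The ADP/ATP carrier SLC25A5 had the highest level per length of canonical transcript, at 589.6 ± 18.8 CPM per kb in overexpressing cells and 529 ± 6.64 in controls (SD, n = 3 each). The X-chromosome entry of the ADP/ATP carrier SLC25A6 had 206 ± 8.79 CPM per kb in overexpressing cells and 165 ± 5.07 in controls, and the phosphate carrier SLC25A3 153 ± 4.11 CPM per kb in overexpressing cells and 131 ± 1.799 in controls (SD, n = 3 each). The SLC25A3 value rests on a canonical transcript of 5984 bases. Annotated transcripts of this gene run from 556 to 6087 bases with a median of 1369, and with that median the SLC25A3 level was 669 CPM per kb in overexpressing cells and 572 in controls, so the order of SLC25A3 and SLC25A5 is not settled. The citrate carrier SLC25A1 came next at 121 ± 6.91 CPM per kb in overexpressing cells and 88.2 ± 7.25 in controls (SD, n = 3 each), followed by the glutathione carrier SLC25A39 and the aspartate/glutamate carrier SLC25A13. At the other end, SLC25A41, SLC25A27 and SLC25A18 averaged under 1 CPM. SLC25A41, an ATP-Mg/phosphate carrier, was lowest, at 0.175 ± 0.0976 CPM per kb in overexpressing cells and 0.1497 ± 0.0417 in controls (SD, n = 3 each), and its groups overlapped.

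**Figure D1:**
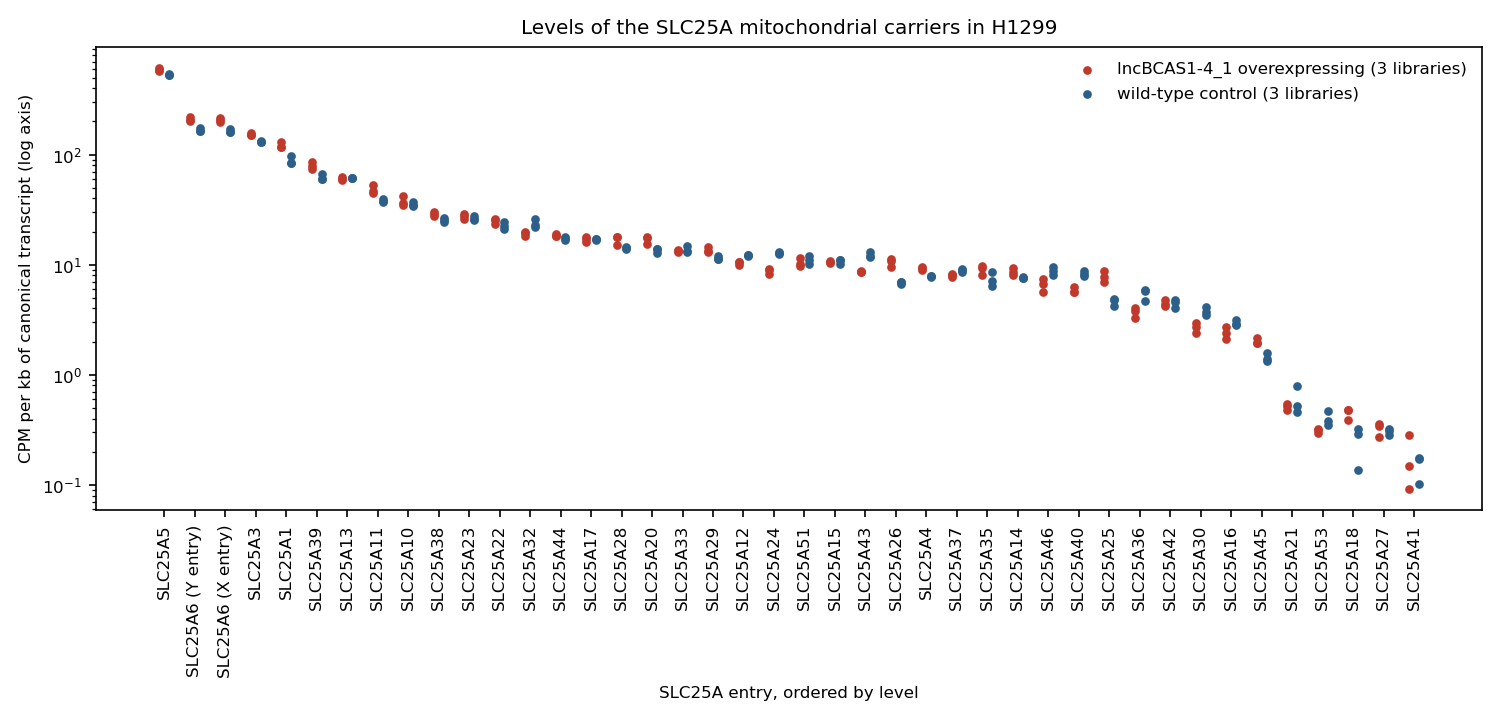
Level of 42 SLC25A entries in each library, in CPM per kb of canonical transcript on a log axis, with entries ordered by level and 3 points per group. SLC25A5 stands highest at 589.6 CPM per kb in overexpressing cells and SLC25A41 lowest at 0.175.

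The entries for SLC25A6 lie at the same coordinates of chromosomes X and Y (1386152 to 1392113, minus strand, GRCh38), in the region that the sex chromosomes share. The Y entry had 1.35% to 2.16% more counts than the X entry in every library. Whether reads that fit both copies were counted in both entries or split between them is not given in the sources used here, so the level of SLC25A6 is known only up to that factor. Summed over all 43 entries, SLC25A counts came to 3954 ± 114 CPM in overexpressing cells and 3542 ± 57.3 CPM in controls (SD, n = 3 each), a ratio of 1.12. With 1 SLC25A6 entry the sum was 3649 ± 101 CPM in overexpressing cells and 3298 ± 49.7 CPM in controls (SD, n = 3 each). The overexpressing libraries lay above all controls in both sums (exact permutation test, two-sided p = 0.1, the smallest that 3 against 3 allows). SLC25A3, SLC25A5 and both SLC25A6 entries made up 57.9% ± 0.251 of the sum over all 43 entries in overexpressing cells and 55.2% ± 0.0766 in controls (SD, n = 3 each). The other members together came to 1664 ± 39.6 CPM in overexpressing cells and 1585 ± 23.2 CPM in controls (SD, n = 3 each), a ratio of 1.05. None of these sums was corrected for GC content or length.

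As fitted, 15 of the 43 entries were higher and 9 lower in overexpressing cells at an adjusted p under 0.05. Across all entries tested, 18.3% were higher and 19.7% lower. Among entries with a mean log2 CPM above 3, which 37 of the members reach, these shares were 29.2% and 31.2%. Counted by gene, with the SLC25A6 entries summed, 14 of 42 were higher and 9 lower. The median log2 fold change was 0.096 over the members and -0.0041 over all entries. The called differences were small, from -0.56 to 0.75 on the log2 scale, and 22 of the 24 were under 1.5-fold. None of the 43 passed the study's own criterion of more than 2-fold at an unadjusted p under 0.05 by edgeR, DESeq2 or limma-voom. By edgeR, 1.77% of all entries passed it as higher and 1.18% as lower. Without control 2, 1 member passed it, the low-count glutamate carrier SLC25A18 (log2 fold change 1.08, adjusted p = 0.066; named after its value was seen). The groups did not overlap in 19 entries that were higher and 11 that were lower, against 24.7% and 26% of all entries. The shares without overlap were not taken among entries with a mean log2 CPM above 3, so they are not matched to the members' levels.

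**Figure D2:**
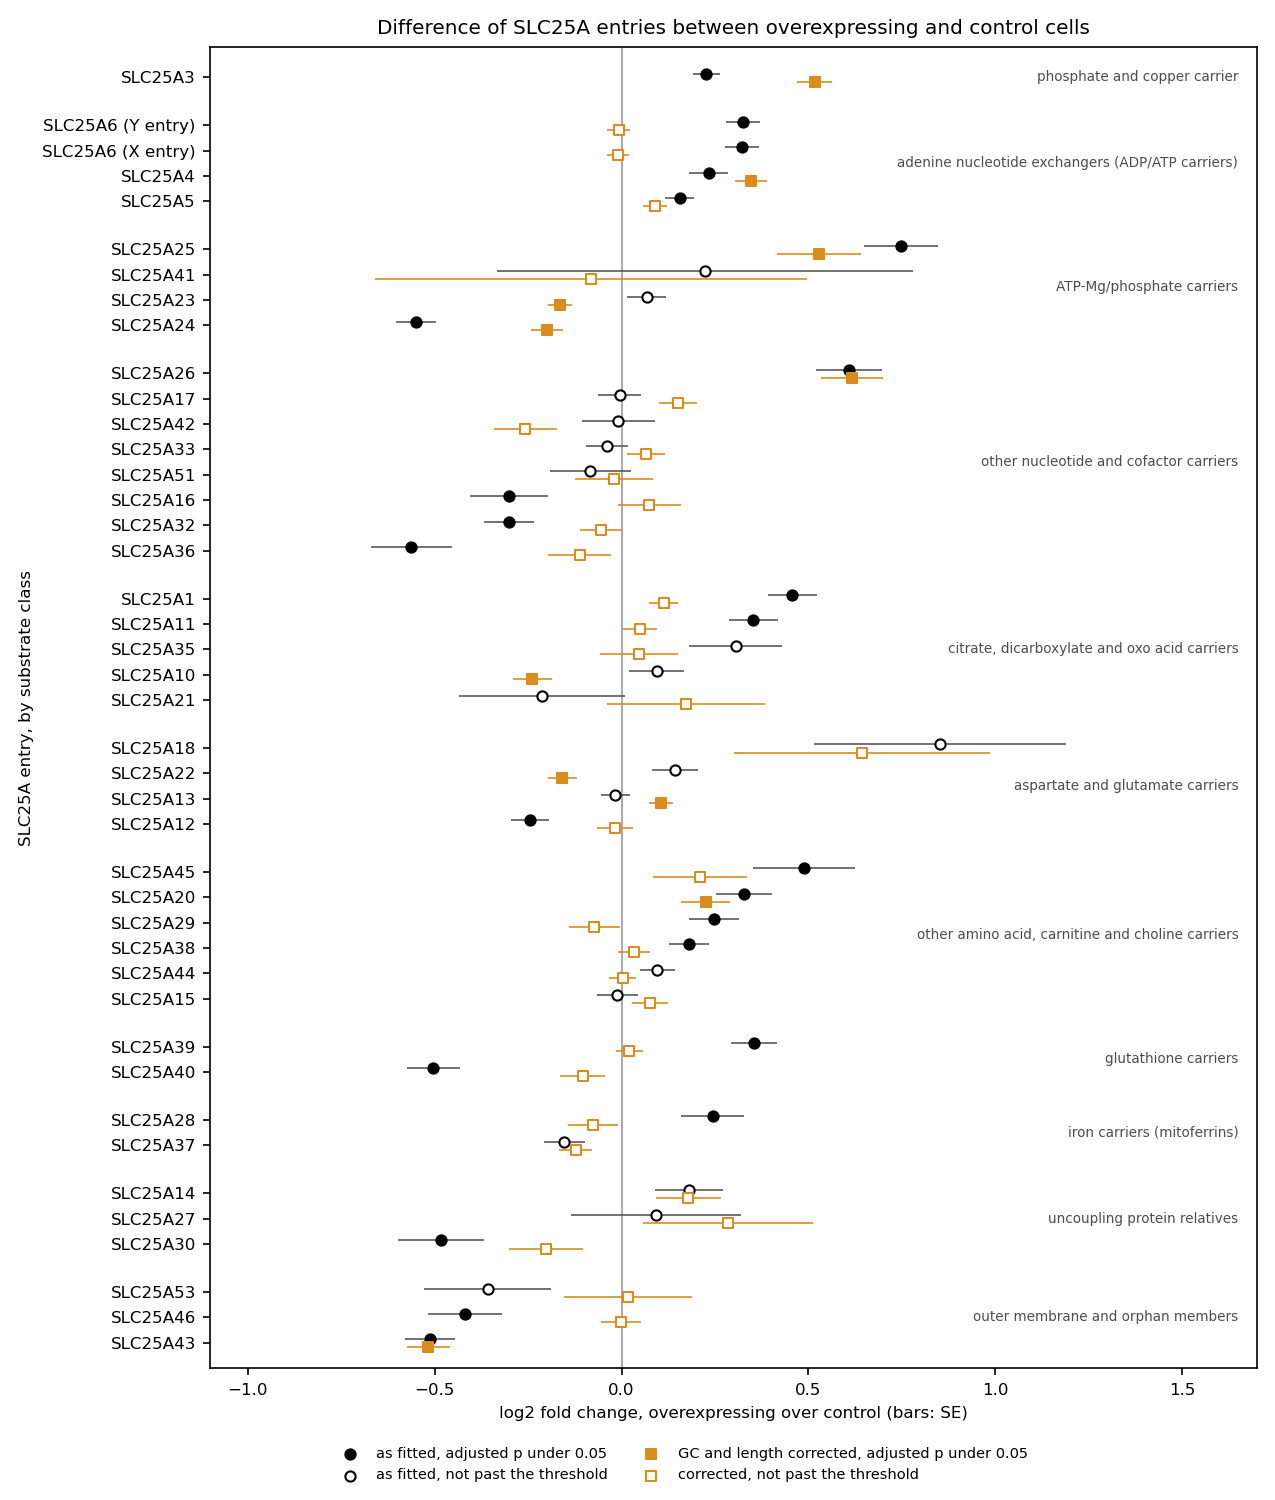
Log2 fold change of overexpressing over control cells (bars: SE) for 42 SLC25A entries, grouped by substrate class, as fitted (circles) and after the GC and length correction (squares); filled symbols passed an adjusted p under 0.05. As fitted 15 entries were higher and 9 lower, and after the correction 6 and 5.

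The members' fold changes followed GC content as those of the whole table did. The GC content of their canonical transcripts ran from 34.3% to 65.3%, and over the 42 genes its Spearman correlation with the log2 fold change was 0.71 (-0.11 after the correction). Of 15 entries under 45% GC, 8 were lower and 1, SLC25A3, was higher. Of 16 entries over 55% GC, 9 were higher and none lower. In the 12 between, 5 were higher and 1, SLC25A43, lower. After the correction 6 members were higher and 5 lower, against 11.5% and 11.2% of all entries and 18.8% and 18% of those with a mean log2 CPM above 3, and the member median was 0.017 (-0.012 over all entries). Of the 24 called as fitted, 7 were called in the same direction after the correction and 17 no longer passed. Another 4, not called as fitted, passed after it.

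**Figure D3:**
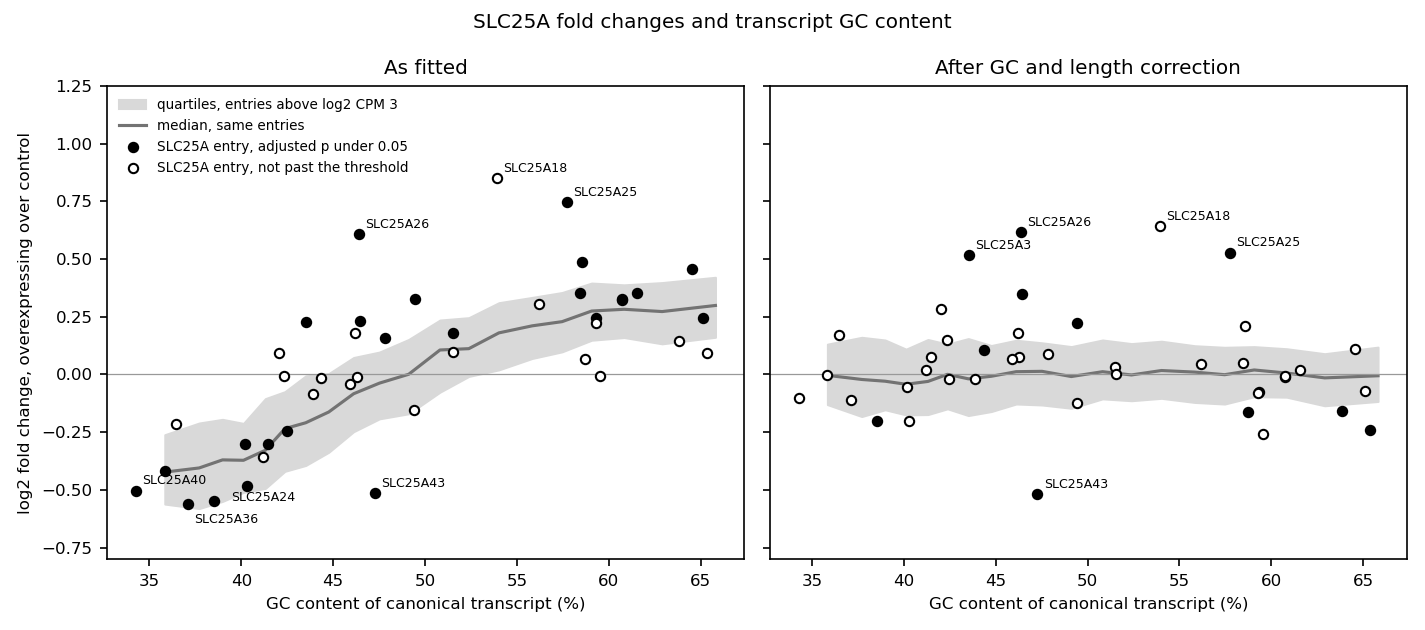
Log2 fold change of 42 SLC25A entries (points) against the GC content of their canonical transcripts, as fitted (left) and after the GC and length correction (right), with the median (line) and quartiles (band) of entries with a mean log2 CPM above 3 in 20 bins of GC content. As fitted most members lie along the trend, with SLC25A26, SLC25A18, SLC25A25, SLC25A43 and SLC25A3 among those away from it.

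The 7 genes called in the same direction with and without the correction were SLC25A3, SLC25A4, SLC25A20, SLC25A25 and SLC25A26, which were higher, and SLC25A24 and SLC25A43, which were lower. These are 5 and 2 of 43 entries, against 7.55% and 7.52% of all entries. Those shares were not taken among entries with a mean log2 CPM above 3, which all 7 genes reach and where calls are more frequent. The largest differences as fitted among them were in SLC25A25, SLC25A26, SLC25A24 and SLC25A43. SLC25A25 (chromosome 9, 128068201 to 128109245, plus strand) encodes a calcium-regulated carrier that exchanges ATP-Mg for phosphate. It had 26.3, 24.1 and 29.8 CPM in the overexpressing libraries, against 16.8, 16.5 and 14.5 CPM in the controls, here and below for libraries 1, 2 and 3 in that order. Every overexpressing library lay above every control, at 1.68-fold (log2 fold change 0.75, SE 0.10, adjusted p = 0.00059), with 0.53 after the correction (adjusted p = 0.0089). Its exons share 11.2% of their bases with SLC25A25-AS1 on the opposite strand, which had 1.16 ± 0.238 CPM in overexpressing cells and 1.57 ± 0.325 CPM in controls (SD, n = 3 each). The strand setting of the counting is not given in the sources used here, so reads of such partners cannot be told apart.

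SLC25A26 (chromosome 3, 66133610 to 66388116, plus strand) encodes the carrier that brings S-adenosylmethionine, the methyl donor, into mitochondria. It had 22.95, 19.4 and 21.8 CPM in the overexpressing libraries, against 14.2, 13.7 and 14.3 CPM in the controls. The groups did not overlap, at 1.52-fold (log2 fold change 0.61, SE 0.087, adjusted p = 0.00081), and the value was 0.62 after the correction (adjusted p = 0.00099). Annotated exons of SLC25A26 share 12.3% of their bases with LRIG1 on the opposite strand, and LRIG1 did not pass (0.14 on the log2 scale, adjusted p = 0.37). The GC content of its canonical transcript was 46.4%.

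SLC25A24 (chromosome 1, 108134043 to 108200849, minus strand), a relative of SLC25A25 with the same ATP-Mg/phosphate exchange, fell. It had 37.9, 35.1 and 38.8 CPM in the overexpressing libraries, against 54.7, 55.5 and 53.5 CPM in the controls. All overexpressing libraries were below all controls (log2 fold change -0.55, SE 0.054, adjusted p = 0.00021), and the value was -0.20 after the correction (adjusted p = 0.0098). Its exons share 13.7% of their bases with an entry on the opposite strand, ENSG00000260879, which averaged 0.552 CPM. SLC25A43 (chromosome X, 119399336 to 119454478, plus strand) is an orphan carrier whose substrate is not established. It had 21.4, 21.6 and 21.96 CPM in the overexpressing libraries, against 30.1, 32.9 and 29.7 CPM in the controls. The groups again did not overlap (log2 fold change -0.51, SE 0.067, adjusted p = 0.00056), and the correction left the value at -0.52 (adjusted p = 0.00042).

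**Figure D4:**
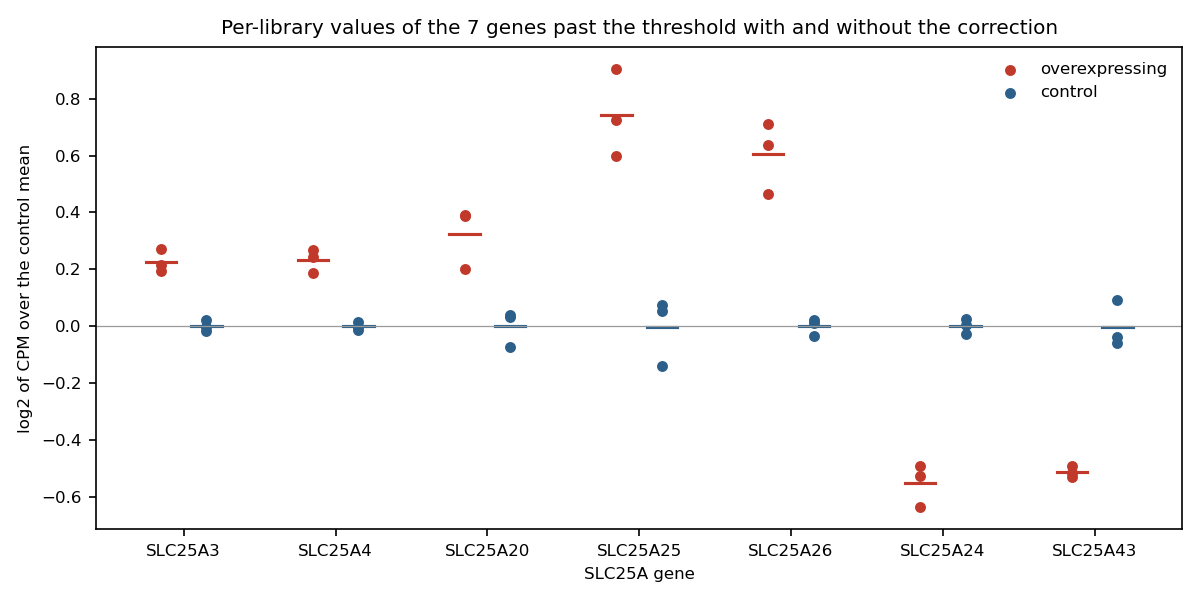
Log2 of CPM over the control mean in each library for the 7 genes past the threshold with and without the correction; points are libraries and short lines are group means. The groups do not overlap in any of these genes.

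The promoters of these 4 genes are shown because their transcripts had the largest differences as fitted among the genes called in both fits, in opposite directions; after the correction SLC25A3, SLC25A4 and SLC25A20 differed by more than SLC25A24. Each sequence is RefSeq's (GRCh38.p14), from 250 bases before to 50 after the start site nearest to that of the canonical transcript, 5′ to 3′ on the gene's strand. The regions are chr9:128067982-128068281 (plus strand), chr3:66220751-66221050 (plus strand), chr1:108200294-108200593 (minus strand) and chrX:119399086-119399385 (plus strand). Capitals mark matches, on either strand, to the motifs described next. The table has 3 start sites for SLC25A25, 3 for SLC25A26 and 2 for SLC25A24, and gene counts do not show which was used.
SLC25A25: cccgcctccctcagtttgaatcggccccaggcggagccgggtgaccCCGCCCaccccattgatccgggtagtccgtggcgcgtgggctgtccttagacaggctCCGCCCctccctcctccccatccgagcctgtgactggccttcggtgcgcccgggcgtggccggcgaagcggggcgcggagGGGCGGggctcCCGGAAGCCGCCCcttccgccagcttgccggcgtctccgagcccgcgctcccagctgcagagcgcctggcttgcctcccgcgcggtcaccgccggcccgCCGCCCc
SLC25A26: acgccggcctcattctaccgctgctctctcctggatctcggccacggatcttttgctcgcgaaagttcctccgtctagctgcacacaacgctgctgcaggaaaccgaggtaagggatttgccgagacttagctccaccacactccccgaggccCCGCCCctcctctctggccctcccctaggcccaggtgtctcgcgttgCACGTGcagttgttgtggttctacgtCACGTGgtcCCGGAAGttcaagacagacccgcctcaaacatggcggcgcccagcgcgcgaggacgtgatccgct
SLC25A24: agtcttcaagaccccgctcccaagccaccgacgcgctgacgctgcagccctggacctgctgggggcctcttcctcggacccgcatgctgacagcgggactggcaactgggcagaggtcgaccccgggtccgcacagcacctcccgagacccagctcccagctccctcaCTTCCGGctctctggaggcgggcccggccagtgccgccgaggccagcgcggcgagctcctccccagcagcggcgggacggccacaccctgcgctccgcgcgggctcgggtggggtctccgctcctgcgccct
SLC25A43: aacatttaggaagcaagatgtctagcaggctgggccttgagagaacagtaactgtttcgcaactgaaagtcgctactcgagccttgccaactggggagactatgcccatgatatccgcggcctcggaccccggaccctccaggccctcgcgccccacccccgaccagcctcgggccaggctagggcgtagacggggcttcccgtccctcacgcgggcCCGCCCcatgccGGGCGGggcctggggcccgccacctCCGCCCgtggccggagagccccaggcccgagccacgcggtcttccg

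A total of 9 motifs were searched on both strands. The ETS motif CCGGAAG was in the promoters of SLC25A25, SLC25A26 and SLC25A24, in 9 of 35 member promoters (25.7%) and in 10.2% of all 34943 promoters of the same length. The SP/KLF box GGGCGG was in those of SLC25A25, SLC25A26 and SLC25A43, in 27 of 35 member promoters and in 44.9% of all promoters. In SLC25A25 an ETS match and an SP/KLF box stand end to end as 1 run of capitals. The E-box CACGTG occurred at 2 places in the SLC25A26 promoter, and in 7 of 35 member promoters against 7.23% of all. These 4 promoters held no match to CCAAT (34.6% of all promoters), the NRF1 motif (5.74%), the cAMP response element TGACGTC (3.43%), the AP-1 motif TGANTCA (7.72%), AAGATGGCG (YY1; 1.75%) or TGATGNAA (the ATF/CHOP element; 3.62%). The member promoters are 1 per gene, the nearest to the canonical start, while the share over all promoters takes in every start site. The sets were also not matched for GC content, so their shares do not compare like with like. Such matches describe letters in this window and not bound sites.

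The phosphate carrier and the ADP/ATP carriers were higher as fitted in all 5 of their entries. The X and Y entries of SLC25A6 among them are copies of the same locus. Of all entries with a mean log2 CPM above 3, 29.2% were higher as fitted. After the correction only SLC25A3 and SLC25A4 of these carriers passed. SLC25A3 (chromosome 12, 98593591 to 98606379, plus strand), which imports phosphate for ATP synthesis and copper for cytochrome oxidase, had 944, 908 and 896 CPM in the overexpressing libraries, against 781, 773 and 794 CPM in the controls. The groups did not overlap (log2 fold change 0.23, SE 0.037, adjusted p = 0.0015). Its corrected value depended on the transcript assumed, at 0.52 with the canonical transcript (adjusted p = 0.00015) and 0.21 with the median length and GC content of its transcripts (adjusted p = 0.0021). SLC25A4, the ADP/ATP carrier typical of heart and muscle, had 39.5, 41.9 and 41.1 CPM in the overexpressing libraries, against 34.7, 34.4 and 35.1 CPM in the controls. It was higher in every overexpressing library (log2 fold change 0.23, SE 0.052, adjusted p = 0.0069), and the corrected value was 0.35 (adjusted p = 0.00065).

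SLC25A5, the ADP/ATP carrier of proliferating cells, had 798, 762 and 752 CPM in the overexpressing libraries, against 689.7, 684 and 701 CPM in the controls. The overexpressing libraries lay just above the controls (log2 fold change 0.16, SE 0.038, adjusted p = 0.011). Its adjusted p was 0.051 without control 1 and 0.059 without control 2, and the corrected value was 0.089 (adjusted p = 0.074; 0.0068 with GC content alone corrected). The X entry of SLC25A6, an ADP/ATP carrier expressed in most tissues, had 313, 296 and 288 CPM in the overexpressing libraries, against 235, 234 and 248 CPM in the controls. The Y entry had 319, 301 and 294 CPM in the overexpressing libraries, against 239.9, 238 and 252 CPM in the controls. Both were higher without overlap as fitted, the X entry with log2 fold change 0.32, SE 0.045, adjusted p = 0.00072, and the corrected values were -0.0096 and -0.0076. The processed pseudogenes known for SLC25A5 and other abundant carriers could share reads with them, so their levels carry that uncertainty.

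The ATP-Mg/phosphate carriers differed among themselves. SLC25A25 was higher and SLC25A24 lower as described, while SLC25A23, the most abundant of them per length, had 97.01, 99.7 and 91.1 CPM in the overexpressing libraries, against 88.1, 89.7 and 96.8 CPM in the controls. Its groups overlapped and it did not pass (log2 fold change 0.067, SE 0.053, adjusted p = 0.37), but after the correction it was lower at -0.16 (adjusted p = 0.0057). Within each library the ratio of SLC25A25 to SLC25A24 counts was 0.695, 0.688 and 0.769 in the overexpressing libraries, against 0.307, 0.298 and 0.271 in the controls. That is a difference of 1.30 on the log2 scale, the widest of 6 pairs of related carriers compared. This ratio was not corrected, and the transcripts have 57.7% and 38.5% GC. After the correction the log2 fold changes were nearer to each other, at 0.53 for SLC25A25 and -0.20 for SLC25A24.

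Among the other nucleotide and cofactor carriers, SLC25A26 was higher and 3 of 9 entries were lower, all of low GC content. Across all entries tested, 18.3% were higher and 19.7% lower. The pyrimidine nucleotide carrier SLC25A36 had 18.6, 21.6 and 23.2 CPM in the overexpressing libraries, against 33.1, 33.5 and 26.9 CPM in the controls. It fell (log2 fold change -0.56, SE 0.11, adjusted p = 0.0034) without overlap, and was -0.11 after the correction (adjusted p = 0.41). Its relative SLC25A33 had 52.1, 50.6 and 51.5 CPM in the overexpressing libraries, against 56.9, 51.6 and 49.9 CPM in the controls, with overlapping groups (log2 fold change -0.039, SE 0.057, adjusted p = 0.65). The folate and FAD carrier SLC25A32 had 56.4, 52.4 and 57.1 CPM in the overexpressing libraries, against 74.8, 64.05 and 65.6 CPM in the controls. All overexpressing libraries were lower (log2 fold change -0.30, SE 0.066, adjusted p = 0.0063), and the corrected value was -0.055. Its exons share 69.7% of their bases with another annotated entry on the same strand, ENSG00000285982, which averaged under 0.1 CPM.

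SLC25A16, a carrier linked to coenzyme A, had 13.97, 15.8 and 17.9 CPM in the overexpressing libraries, against 19.1, 20.9 and 18.7 CPM in the controls. The groups did not overlap, but the call was weak (log2 fold change -0.30, SE 0.10, adjusted p = 0.048), its adjusted p was between 0.059 and 0.17 without any of the libraries other than overexpressing library 3, and the corrected value was 0.074. The peroxisomal carrier SLC25A17 (-0.0055, adjusted p = 0.95), the coenzyme A carrier SLC25A42 (-0.0083, adjusted p = 0.96) and the NAD+ carrier SLC25A51 (-0.084, adjusted p = 0.60) did not pass, in log2 fold changes. With GC content alone corrected, SLC25A17 was higher at 0.24 (adjusted p = 0.010).

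Of the carriers of citrate and oxo acids, 2 of 5 were higher as fitted and none lower, against 18.3% and 19.7% of all entries. Their median difference was 0.31 on the log2 scale as fitted and 0.050 after the correction. SLC25A1, which exports citrate for lipid synthesis, had 199.5, 182 and 179.9 CPM in the overexpressing libraries, against 131, 129 and 149 CPM in the controls. All overexpressing libraries were above the controls, at 1.37-fold (log2 fold change 0.46, SE 0.065, adjusted p = 0.00079). The corrected value was 0.11 (adjusted p = 0.063), and with GC content alone corrected it passed at 0.16 (adjusted p = 0.017). SLC25A11, the oxoglutarate/malate carrier, had 90.2, 79.7 and 76.2 CPM in the overexpressing libraries, against 62.5, 63.4 and 66.8 CPM in the controls, without overlap (log2 fold change 0.35, SE 0.065, adjusted p = 0.0026), and was 0.050 after the correction (adjusted p = 0.49). The dicarboxylate carrier SLC25A10 overlapped between groups (log2 fold change 0.094, SE 0.074, adjusted p = 0.37) and was lower after the correction, at -0.24 (adjusted p = 0.011). The orphan SLC25A35 (0.31, adjusted p = 0.085) and the oxoadipate carrier SLC25A21 (-0.21, adjusted p = 0.51) did not pass. SLC25A35 shares 28.7% of its exon bases with RANGRF, and SLC25A21 30.3% with PAX9, each on the opposite strand.

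The aspartate/glutamate carriers exchange these amino acids in the malate-aspartate shuttle. SLC25A12 had 41.2, 38.8 and 41.5 CPM in the overexpressing libraries, against 48.2, 47.05 and 48.6 CPM in the controls. It fell as fitted (log2 fold change -0.24, SE 0.051, adjusted p = 0.0048) with no overlap, and was -0.018 after the correction (adjusted p = 0.84). SLC25A13, the more abundant of the pair, had 188, 185 and 196 CPM in the overexpressing libraries, against 191, 193 and 191 CPM in the controls, with overlapping groups (log2 fold change -0.017, SE 0.039, adjusted p = 0.77). It was 0.11 after the correction (adjusted p = 0.039), a call lost without control 1, control 2, overexpressing library 1 or overexpressing library 3 (adjusted p from 0.075 to 0.13). The glutamate carrier SLC25A22 did not pass as fitted (0.14 on the log2 scale, adjusted p = 0.10) and was lower after the correction, at -0.16 (adjusted p = 0.016; 0.057 without control 1 and 0.058 without overexpressing library 3). SLC25A18, the other glutamate carrier, had 0.841, 1.04 and 1.06 CPM in the overexpressing libraries, against 0.628, 0.697 and 0.301 CPM in the controls. Its groups did not overlap, and at such low counts the log2 fold change of 0.85 (SE 0.34) did not pass (adjusted p = 0.076).

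Carriers of other amino acids and carnitine had 4 of 6 members higher and none lower as fitted. Across all entries tested, 18.3% were higher and 19.7% lower, and 29.2% and 31.2% of those with a mean log2 CPM above 3. After the correction 1 of the 6 was higher and none lower, with a class median of 0.055. SLC25A20, the carnitine/acylcarnitine carrier of fatty acid oxidation, had 31.3, 31.4 and 27.6 CPM in the overexpressing libraries, against 22.8, 24.5 and 24.6 CPM in the controls. The groups did not overlap, at 1.26-fold (log2 fold change 0.33, SE 0.076, adjusted p = 0.0079), and it was 0.23 after the correction (adjusted p = 0.037). That corrected call was lost without any of the libraries other than overexpressing library 3 (adjusted p from 0.063 to 0.13). SLC25A29, a carrier of basic amino acids, had 30.2, 33.05 and 30.05 CPM in the overexpressing libraries, against 27.2, 25.7 and 25.7 CPM in the controls (log2 fold change 0.25, SE 0.067, adjusted p = 0.017). SLC25A38, the glycine carrier needed for haem synthesis, had 63.5, 60.5 and 57.7 CPM in the overexpressing libraries, against 53.6, 51.1 and 55.5 CPM in the controls (log2 fold change 0.18, SE 0.054, adjusted p = 0.025). SLC25A45, placed here with the amino acid carriers, had 4.38, 4.88 and 4.38 CPM in the overexpressing libraries, against 3.13, 3.001 and 3.596 CPM in the controls (log2 fold change 0.49, SE 0.14, adjusted p = 0.020). None of these 3 overlapped between groups and none passed after the correction (-0.074, 0.033 and 0.21).

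Leaving out single libraries also ended these calls. For SLC25A29 the adjusted p was 0.066 without control 2 and 0.060 without overexpressing library 2. For SLC25A38 it was between 0.061 and 0.11 without control 1, control 2, overexpressing library 1 or overexpressing library 2. For SLC25A45 it was between 0.063 and 0.075 without control 1, control 2 or overexpressing library 2. The ornithine carrier SLC25A15 (-0.011, adjusted p = 0.90) and the branched-chain amino acid carrier SLC25A44 (0.096, adjusted p = 0.14) did not pass.

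The mitochondrial glutathione carriers went opposite ways as fitted. SLC25A39 had 135, 123 and 118 CPM in the overexpressing libraries, against 94.7, 94.8 and 105 CPM in the controls. It was higher in every overexpressing library (log2 fold change 0.35, SE 0.062, adjusted p = 0.0020). Its paralogue SLC25A40 had 22.9, 22.96 and 25.3 CPM in the overexpressing libraries, against 33.1, 35.4 and 32.3 CPM in the controls, and it was lower in every one (log2 fold change -0.50, SE 0.071, adjusted p = 0.00073). The ratio of SLC25A39 to SLC25A40 counts was 5.91, 5.38 and 4.66 in the overexpressing libraries, against 2.86, 2.68 and 3.24 in the controls, a difference of 0.86 on the log2 scale. The transcripts also differ in GC content, at 61.5% for SLC25A39 and 34.3% for SLC25A40, and neither passed after the correction (0.021 and -0.10).

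The mitoferrins import iron for haem and iron-sulphur clusters. SLC25A28 had 27.1, 27.2 and 22.8 CPM in the overexpressing libraries, against 22.1, 21.2 and 21.9 CPM in the controls. It was higher as fitted (log2 fold change 0.24, SE 0.084, adjusted p = 0.047), a call lost without any of the libraries other than overexpressing library 3 (adjusted p from 0.083 to 0.14), and -0.077 after the correction (adjusted p = 0.48). SLC25A37, best known from developing red cells, had 36.2, 37.8 and 38.3 CPM in the overexpressing libraries, against 43.1, 41.4 and 40.3 CPM in the controls. Its libraries were separated the other way without passing (log2 fold change -0.15, SE 0.054, adjusted p = 0.051), and with GC content alone corrected it was lower at -0.18 (adjusted p = 0.020).

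Relatives of the uncoupling proteins had 1 of 3 members lower, against 19.7% of all entries. SLC25A30 had 10.9, 8.83 and 10.01 CPM in the overexpressing libraries, against 13.7, 15.1 and 12.7 CPM in the controls. The groups did not overlap (log2 fold change -0.48, SE 0.11, adjusted p = 0.0093), and it was -0.20 after the correction (adjusted p = 0.19). SLC25A14, the most abundant of the 3 per length, had 13.7, 14.98 and 13.1 CPM in the overexpressing libraries, against 12.2, 12.1 and 12.5 CPM in the controls and did not pass (log2 fold change 0.18, SE 0.091, adjusted p = 0.16), although with GC content alone corrected it was higher at 0.27 (adjusted p = 0.046). SLC25A27 was low and overlapped (log2 fold change 0.092, SE 0.23, adjusted p = 0.80). Of the remaining members, SLC25A46, an outer membrane protein of mitochondrial shape and lipid supply, had 31.8, 26.9 and 34.9 CPM in the overexpressing libraries, against 41.7, 45.3 and 38.2 CPM in the controls. It fell as fitted (log2 fold change -0.42, SE 0.10, adjusted p = 0.0093) and was at -0.0017 after the correction (adjusted p = 0.99). SLC25A53, an orphan carrier, stood at -0.36 on the log2 scale and did not pass (adjusted p = 0.13).

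Within-library ratios of 6 pairs of related carriers were compared between the groups. The overexpressing libraries lay above all controls in 5 pairs, each with a two-sided exact permutation p of 0.1, the smallest that 3 against 3 allows (0.12 adjusted over the 6). In SLC25A25 with SLC25A24, SLC25A39 with SLC25A40 and SLC25A28 with SLC25A37, both genes were already separated, in opposite directions. Their ratios could therefore not overlap, and their p-values add nothing to those separations. Which gene stands first was a choice, so the shared direction of the ratios is not a result. Besides the pairs above, SLC25A28 over SLC25A37 was 0.747, 0.721 and 0.596 in the overexpressing libraries, against 0.513, 0.5105 and 0.542 in the controls. SLC25A13 over SLC25A12 was 4.57, 4.76 and 4.71 in the overexpressing libraries, against 3.97, 4.09 and 3.94 in the controls. SLC25A33 over SLC25A36 was 2.81, 2.34 and 2.22 in the overexpressing libraries, against 1.72, 1.54 and 1.86 in the controls. SLC25A4 over SLC25A5 was 0.0495, 0.05496 and 0.0546 in the overexpressing libraries, against 0.0503, 0.0503 and 0.0501 in the controls, with overlapping groups (exact permutation p = 0.4, also 0.4 adjusted). Such ratios do not depend on the scaling of the libraries but keep any effect of GC content. In the 5 pairs without overlap the first gene had the higher GC content. These were 57.7% and 38.5% for SLC25A25 and SLC25A24, 61.5% and 34.3% for SLC25A39 and SLC25A40, and 59.3% and 49.4% for SLC25A28 and SLC25A37. SLC25A13 and SLC25A12 had 44.3% and 42.5%, and SLC25A33 and SLC25A36 had 45.9% and 37.1%. SLC25A4 had 46.4% and SLC25A5 47.8%. Ratios of other pairs of genes were not compared, and the part of GC content was not tested.

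**Figure D5:**
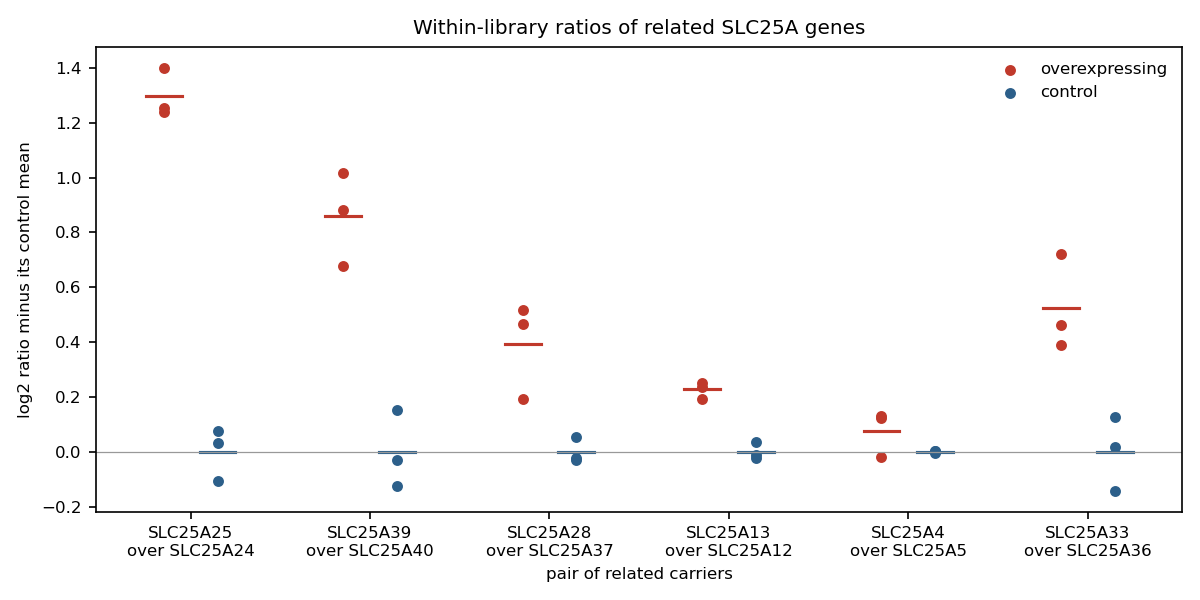
Log2 of the count ratio of 6 pairs of related SLC25A genes in each library, minus the control mean of that ratio; points are libraries and short lines are group means. The largest shift, 1.30 without the correction, is that of SLC25A25 over SLC25A24.

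Genes that work beside these carriers moved in both directions. Of 65 tested genes in 9 lists, 22 were higher and 17 lower as fitted, and 11 and 9 after the correction. These shares lie near those of all entries with a mean log2 CPM above 3 (29.2% and 31.2% as fitted, 18.8% and 18% corrected). The count of 22 was 14 without control 1, 9 without control 2 and 13 without overexpressing library 1. Family members under other symbols had 2 of 4 higher. The outer membrane insertase relative MTCH1 had 465 ± 19.1 CPM in overexpressing cells and 366 ± 14.4 CPM in controls (SD, n = 3 each; 0.35 on the log2 scale, adjusted p = 0.00060) and the uncoupling protein UCP2 53.04 ± 2.83 CPM in overexpressing cells and 45.7 ± 3.84 CPM in controls (SD, n = 3 each; 0.21, adjusted p = 0.036). Neither passed after the correction (0.055 and -0.069). MTCH2, the insertase itself, was at 0.030 as fitted and passed at 0.22 after it (adjusted p = 0.013; 0.057 without control 1). UCP2 did not pass without control 1, control 2, overexpressing library 1 or overexpressing library 2 (adjusted p from 0.072 to 0.13).

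The import route that inserts carriers into the inner membrane had 4 of 13 genes higher and 4 lower. Among all entries with a mean log2 CPM above 3, 29.2% were higher and 31.2% lower as fitted. The outer membrane receptors TOMM20 (-0.34, adjusted p = 0.00081) and TOMM70 (-0.26, adjusted p = 0.0033), the second of which recognises carrier precursors, fell in log2 fold change, and neither passed after the correction (-0.083 and 0.022). The small chaperone TIMM8B rose (0.34, adjusted p = 0.0081; corrected 0.41, adjusted p = 0.0049), and TIMM22, the carrier insertase, had 49.8 ± 1.705 CPM in overexpressing cells and 46.6 ± 1.76 CPM in controls (SD, n = 3 each; 0.096, adjusted p = 0.18). TOMM40 and TIMM13, named after their values were seen, were called higher as fitted (0.19 and 0.17) and lower after the correction (-0.15 and -0.16). As fitted, TOMM40 did not pass without control 2 (adjusted p = 0.059), and TIMM13 without control 1, control 2, overexpressing library 1 or overexpressing library 3 (from 0.052 to 0.16). After the correction, TOMM40 did not pass without control 1, control 2, overexpressing library 2 or overexpressing library 3 (from 0.065 to 0.13), and TIMM13 without any library other than overexpressing library 1 (from 0.060 to 0.12). Of the outer channels and the pyruvate carrier, 1 of 5 genes was higher. MPC2, a pyruvate carrier subunit, rose (0.20, adjusted p = 0.012, or 0.056 without control 2; corrected 0.35), while its partner MPC1 (-0.023, adjusted p = 0.90) and the channel VDAC1 (-0.045, adjusted p = 0.36) did not pass.

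Sideroflexins, which include the serine carrier, had 2 of 5 genes higher and 1 lower, SFXN1 at -0.37 (adjusted p = 0.0030) and SFXN3 at 0.17 and SFXN5 at 0.26, with none called after the correction. SFXN3 did not pass without control 1, control 2, overexpressing library 1 or overexpressing library 2 (adjusted p from 0.064 to 0.10), and SFXN5 without any library other than overexpressing library 3 (from 0.067 to 0.13). ABC transporters of mitochondria had 2 of 4 higher and 1 lower. The list counts of this paragraph stand beside 29.2% higher and 31.2% lower among all entries with a mean log2 CPM above 3. ABCB8 rose (0.46, adjusted p = 0.00047; corrected 0.27) and ABCB10, known to stabilise mitoferrin in mouse red cells, fell (-0.53, adjusted p = 0.0020; corrected -0.41), and both passed in both fits. ABCB6 rose as fitted only (0.78, adjusted p = 0.012). Calcium uniporter and exchanger genes had 3 of 9 higher and 3 lower. The lower ones were the pore MCU (-0.22), its relative MCUB (-0.30) and the regulator MICU2 (-0.37), none of which passed after the correction. MCU did not pass as fitted without control 1 or control 2 (adjusted p = 0.052 and 0.053), and MICU2 without control 1 (0.059).

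NADH shuttle enzymes had 3 of 6 higher and 3 lower. This and the other list counts below stand beside 29.2% higher and 31.2% lower among all entries with a mean log2 CPM above 3. No list was tested as a set. GPD2, the glycerol phosphate dehydrogenase of the inner membrane, had 51.3 ± 3.04 CPM in overexpressing cells and 75.7 ± 4.100 CPM in controls (SD, n = 3 each; -0.56, adjusted p = 0.00027). It passed after the correction at -0.15, as did GPD1L (-0.49 as fitted, -0.29 corrected) and the aspartate aminotransferase GOT1, which was higher (0.23 and 0.15). The corrected call of GPD2 was lost without any of the libraries other than overexpressing library 1 (adjusted p from 0.065 to 0.097). Haem and iron-sulphur enzymes had 4 of 10 higher and 1 lower. The lower one, the haem synthesis enzyme CPOX, passed in both fits (-0.34 and -0.32), and ALAS1 (0.21) and PPOX (0.47) were higher as fitted only. Regulators of mitochondrial gene expression had 1 of 9 higher, the nuclear receptor ESRRA (0.35, adjusted p = 0.00039), and 4 lower, among them TFAM, which packages mitochondrial DNA (-0.42, adjusted p = 0.0017), and the ETS factor GABPA (-0.49, adjusted p = 0.0045). None of these 3 passed after the correction (0.036, 0.0096 and -0.055). The coactivators PPARGC1B and PPRC1, named after their values were seen, were lower after it, PPARGC1B in both fits (-0.47, adjusted p = 0.0073; corrected -0.32, adjusted p = 0.041) and PPRC1 in the corrected one (-0.15, adjusted p = 0.016). The corrected call was lost for PPARGC1B without control 1, control 2, overexpressing library 1 or overexpressing library 2 (adjusted p from 0.12 to 0.16), and for PPRC1 without control 1, control 2 or overexpressing library 3 (from 0.050 to 0.065).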

How the data were processed

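Per the labels, total RNA of each of the 6 samples was sequenced. Per the labels' protocols, the authors used fastp to trim reads and HISAT2 to align them to GRCh38, assembled and merged transcripts with StringTie and gffcompare, and selected genes with edgeR at a fold above 2 or below 0.5 and p under 0.05. The deposited table holds raw read counts per gene, with a symbol and an Ensembl identifier. The sources used here do not give the way of counting, the kit or its strandedness. Library totals ran from 84531039 to 92780032 counts, and no interval was drawn from them, since replicates varied by more than counting error alone gives (a chi-square of 11.6 to 22.7 per degree of freedom).

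Counts were tested with edgeR 4.0.16 (R 4.3.3): filterByExpr (minimum count 10 and total 15, keeping 19101 of 19201 entries), TMM scaling, quasi-likelihood F-tests of overexpressing against control samples, and Benjamini-Hochberg adjustment over all tested entries, with a threshold of 0.05. The GC and length correction added offsets per library from natural splines with 5 degrees of freedom on the GC content and log2 length of the canonical GENCODE 44 transcript, known for 99.3% of tested entries. Alternatives were DESeq2 1.42.0, limma-voom 3.58.1, other scalings and filters, a replicate block and leaving out each library. The procedure was also run on simulated counts with planted changes, with and without a linear trend in GC content and log2 length in the overexpressing libraries. Its outcome is not reported here. The correction can fit such a trend by its form, so the simulation cannot show whether the trend in these data should be removed. Single values were compared by exact permutation tests over samples.

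Gene coordinates are those of GENCODE 44 (GRCh38), and promoter sequences are RefSeq's (GRCh38.p14). Of the 42 member genes, 35 had a promoter in the table used. The members, classes and lists were chosen with earlier results of these data known. Values per library are given for each member past the threshold, for the most abundant member per length of each class and for paralogues of which at least 1 passed. The values of 1 member, which did not pass, and of 1 marker gene are not reported here, and that member stays in the counts but not in the figures. Of each other list, up to 3 genes with the smallest p past the threshold are named, besides TIMM22, VDAC1, UCP2, MTCH1, MTCH2, MPC1 and MPC2.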

Additional observations from a re-analysis of the deposited data

How the results depend on the processing

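No member changed direction under another scaling, another filter, DESeq2, limma-voom, the replicate block alone or the loss of any 1 library. A change was counted only for a member past the threshold in at least 1 of the fits being compared. Changes of sign in members that passed in neither are left out, such as SLC25A13 without overexpressing library 2 (0.0025, against -0.017 with all libraries). The correction changed more. With GC content and length corrected, all entries had 2188 higher and 2133 lower, the members 6 and 5, and the other lists 11 and 9, and with GC content alone the lists had 6 lower. Log2 fold changes of opposite sign were SLC25A13 0.11, SLC25A16 0.074, SLC25A23 -0.16, SLC25A28 -0.077, SLC25A6 X entry -0.0096, SLC25A22 -0.16, SLC25A10 -0.24, SLC25A29 -0.074 and SLC25A6 Y entry -0.0076 with both corrected. With GC content alone they were SLC25A13 0.15, SLC25A17 0.24, SLC25A23 -0.18, SLC25A28 -0.014, SLC25A32 0.017, SLC25A22 -0.15, SLC25A10 -0.20 and SLC25A29 -0.052. By median transcript they were SLC25A13 0.17, SLC25A17 0.21, SLC25A12 0.058, SLC25A16 0.12, SLC25A23 -0.21, SLC25A32 0.00011, SLC25A6 X entry -0.0071, SLC25A22 -0.14, SLC25A10 -0.22, SLC25A29 -0.060 and SLC25A6 Y entry -0.0050, and with the SLC25A6 entries summed SLC25A6 was at -0.0086. The last pair of settings was chosen after seeing the data. Whether the correction removes a technical trend or a real one was not tested.

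Nothing in the labels pairs the samples by replicate number. Deviations from the group means of same-numbered libraries had correlations of -0.073, -0.26 and -0.44 over 10091 entries, and no library correlated best with its own number. With 3 libraries per group such deviations depend on each other, so these correlations cannot exclude a weak pairing. With the replicate block, 10 members were higher and 8 lower, and 11 genes of the other lists were higher. With the replicate block and the correction together, all entries had 1742 higher and 1654 lower, the members 4 and 5, and the lists 9 and 6. Opposite signs were then SLC25A16 0.070, SLC25A23 -0.16, SLC25A28 -0.078, SLC25A6 X entry -0.0098, SLC25A22 -0.16, SLC25A10 -0.24, SLC25A29 -0.072 and SLC25A6 Y entry -0.0077.

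Leaving out 1 library gave 10 to 16 members higher and 8 to 9 lower as fitted, 4 to 6 and 4 to 5 after the correction, 9 to 21 genes of the other lists higher, and 0 to 1 members past 2-fold by the study's criterion. By library size alone the lists had 13 higher. Depth limits SLC25A18, SLC25A27 and SLC25A41, at under 1 CPM on average, where an SE of up to 0.56 on the log2 scale (SLC25A41) leaves small differences undetectable.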

Other observations

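A further 5 entries carry an SLC25A symbol with a suffix and are not members. The antisense RNA SLC25A5-AS1 had 2.47 ± 0.612 CPM in overexpressing cells and 2.46 ± 0.1405 CPM in controls (SD, n = 3 each), a log2 difference of 0.0056 (edgeR's quasi-likelihood test, adjusted p = 0.99), while SLC25A5 itself was higher. SLC25A25-AS1, antisense to SLC25A25, stood at -0.44 on the log2 scale (adjusted p = 0.19), of opposite sign to SLC25A25, and its groups overlapped. SLC25A21-AS1 had 1.06 ± 0.328 CPM in overexpressing cells and 1.03 ± 0.193 CPM in controls (SD, n = 3 each; 0.039, adjusted p = 0.93). The divergent transcript SLC25A28-DT and the pseudogene SLC25A24P2 averaged 0.295 and 0.1796 CPM over the 6 libraries and did not pass (adjusted p = 0.90 and 0.60). DCAF13, which shares 11.1% of the exon bases of SLC25A32 on the opposite strand, fell as SLC25A32 did, with 83.1 ± 5.34 CPM in overexpressing cells and 105 ± 6.69 CPM in controls (SD, n = 3 each; -0.34, adjusted p = 0.0027), and had a corrected value of -0.075 (adjusted p = 0.16). Whether shared reads link the counts of these neighbours was not tested.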
